A study of Mus musculus with 4 samples.

Results

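The complement, coagulation and fibrinolysis genes examined here are 44 named mouse genes, all of which were found by symbol among the 27179 genes measured in the kidney medulla. The list holds complement components with their regulators and receptors, clotting factors with their inhibitors and receptors, the plasminogen activators, and the protease inhibitor gene A2m. Bulk mRNA sequencing was done on the medulla of 4 mice of a mixed C57BL/6 strain at postnatal day 14. The 2 control mice were wild type for Actr3. The 2 others carried the genotype Actr3-fl/fl*Cdh16-Cre, in which loxP-flanked Actr3 alleles meet a Cre recombinase under the promoter of Cdh16, a cadherin gene of renal tubule epithelium. Cre is therefore aimed at tubule cells, and other cells of the medulla are not its target. Actr3 encodes Arp3, a subunit of the complex that nucleates branched actin. The comparison asks how these genes differed between the knockout and the control medulla.

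Complement is a cascade of serum proteins that tags cells and debris for removal. C1q, or lectins that bind sugars, start it, C3 amplifies it, and late components form pores in membranes, while surface and soluble regulators stop it on host cells. Coagulation runs from tissue factor through factor X to thrombin and fibrin, is held back by tissue factor pathway inhibitor and the protein C system, and is reversed when plasminogen activators turn plasminogen into plasmin. Most circulating factors come from the liver, but macrophages, endothelium and renal tubules make some of them locally. The tubule is a known source of urokinase, which is shed into urine.

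Counts of the targeted gene went against the labels. Actr3 stood at 8065 and 7275 normalized counts in the libraries labelled WT and at 12587 and 12480 in those labelled KO (log2 difference 0.71, SE 0.082, limma adjusted p = 0.000494). A count over the whole gene also takes in exons outside any deleted part, so it does not check the deletion. The terms WT-labelled and KO-labelled are used for this reason, and each direction rests on the labels. The libraries held 36482238 to 40784436 reads assigned to genes, and 18972 to 19249 genes were above 0. A normalized count is a read count divided by 1 scaling factor for its library. The protocol names 2 animals per group, and each library is taken as 1 mouse. The medulla markers Slc12a1, Aqp2 and Slc14a2 were present in both groups but lower in the KO-labelled one. Slc12a1 had 239881 and 241824 normalized counts in the WT-labelled libraries and 39222 and 28751 in the KO-labelled ones. Aqp2 had 27437 and 34871 against 6961 and 4576, and Slc14a2 48124 and 56463 against 22731 and 13353. Most other markers of these tubule segments were lower too, but Umod had 136828 and 143709 against 203680 and 138033. Cldn4 was higher, with 2662 and 3191 against 20873 and 14780. Proximal tubule markers were also present and uneven between replicates, with Kap at 118424 and 58779 against 25130 and 42716. In bulk tissue, fewer cells of a type and less RNA per cell cannot be told apart.

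Of the 44 genes, 42 had a mean normalized count of at least 10 and were tested, of which 27 rose and 7 fell in the KO-labelled medulla (limma, adjusted p under 0.05). Over all 16253 tested genes 26.3% were called higher, 24.9% lower and 51.2% in either direction, against 81% of these genes in either direction. Complement held most of the rises, with 16 of its 21 tested genes higher, 2 lower and 3 not past the threshold. Coagulation was mixed, with 9 of 17 higher, 4 lower and 4 not past the threshold. The median log2 difference was 0.93 over the 42 genes, 2.07 over the complement genes and 0.46 over the coagulation genes, beside 0.003 over all tested genes. Each log2 difference subtracts the WT-labelled from the KO-labelled mean of log2(value + 1), which understates the change of low genes. Of the 34 called genes, 27 kept their call in each of the 14 other settings that tested them. The 7 that lost it in at least 1 setting were Masp1, Cfd, Cd46, F8, Tfpi, Procr and F2r.

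**Figure D1:**
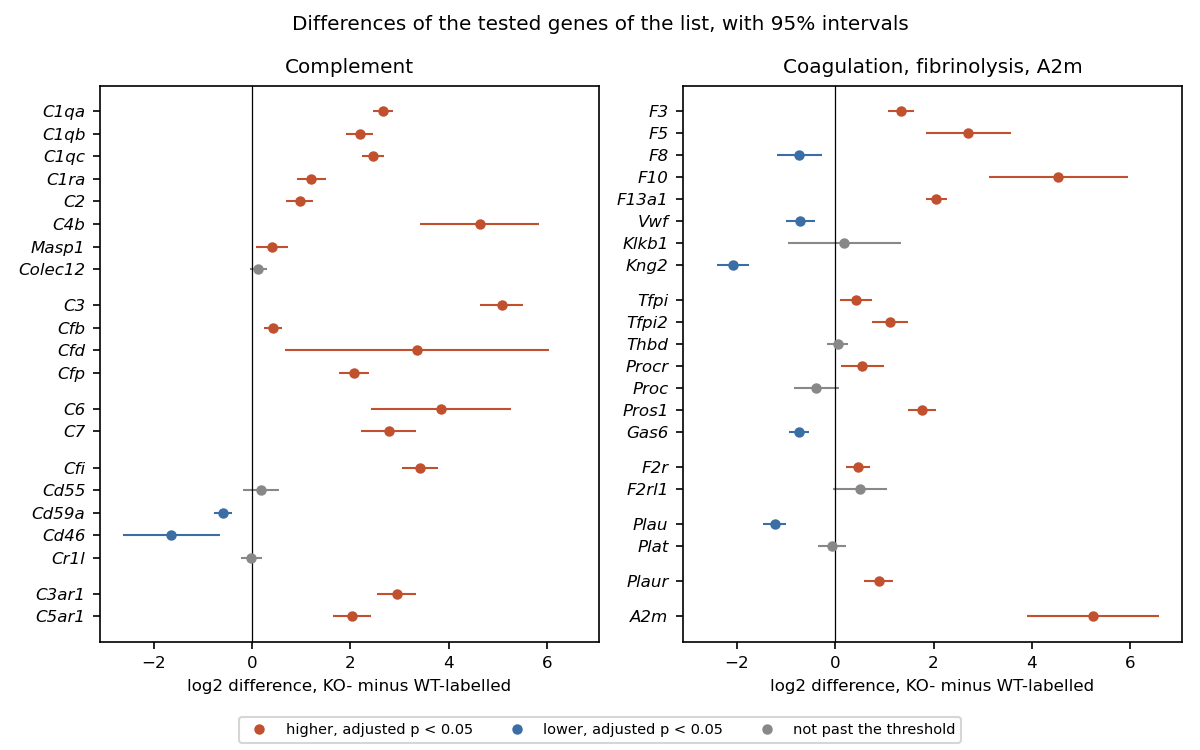
Log2 difference (KO-labelled minus WT-labelled, horizontal axis) of each of the 42 tested genes, with 95% intervals from the limma fit on 2 libraries per group and colour by call. Complement genes on the left lie mostly to the right of 0, with C3 at 5.08, while coagulation and fibrinolysis genes on the right spread from -2.08 for Kng2 to 5.25 for A2m.

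Upstream sequences are shown for the neighbouring genes C1qb and C1qc, which rose together, for C3, which had the largest log2 difference among the listed complement genes, and for Kng2, which had the lowest log2 difference of the list. Each run gives the 250 bases before the start given in RefSeq's table for GRCm38.p6, 5′ to 3′ on the gene's strand, and capitals mark the motif letters found. All 4 genes lie on the minus strand. For C1qc that start lies inside the annotated gene span. The windows are chr4:136886201-136886450 for C1qb, chr4:136892915-136893164 for C1qc, chr17:57228137-57228386 for C3 and chr16:23029102-23029351 for Kng2.
C1qb: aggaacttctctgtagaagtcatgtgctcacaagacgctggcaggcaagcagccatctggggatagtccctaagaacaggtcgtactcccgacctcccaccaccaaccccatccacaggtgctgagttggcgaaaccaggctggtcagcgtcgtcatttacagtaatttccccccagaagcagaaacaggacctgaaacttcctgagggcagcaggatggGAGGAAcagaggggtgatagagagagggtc
C1qc: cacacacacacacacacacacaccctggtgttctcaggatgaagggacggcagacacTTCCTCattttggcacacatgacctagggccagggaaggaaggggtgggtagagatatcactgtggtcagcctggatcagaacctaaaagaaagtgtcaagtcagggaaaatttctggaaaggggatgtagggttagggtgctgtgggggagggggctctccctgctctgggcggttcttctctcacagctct
C3: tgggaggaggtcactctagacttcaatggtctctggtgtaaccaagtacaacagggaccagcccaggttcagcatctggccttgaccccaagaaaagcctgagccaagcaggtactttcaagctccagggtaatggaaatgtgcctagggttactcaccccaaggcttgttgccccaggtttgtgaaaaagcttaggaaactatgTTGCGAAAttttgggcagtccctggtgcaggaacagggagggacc
Kng2: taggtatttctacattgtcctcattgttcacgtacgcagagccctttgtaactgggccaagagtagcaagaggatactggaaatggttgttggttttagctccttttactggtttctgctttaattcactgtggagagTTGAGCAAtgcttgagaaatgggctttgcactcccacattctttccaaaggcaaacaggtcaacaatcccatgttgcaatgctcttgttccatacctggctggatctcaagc

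The capitals in C1qb and C1qc are matches to GAGGAA, the core bound by the myeloid factor PU.1, which begin 30 and 193 bases before the gene start; the match in C1qc is on the opposite strand. Those in C3 and Kng2 are matches to TTGCNNAA, a C/EBP core, and begin 45 and 112 bases before it; the match in Kng2 is on the opposite strand. The search covered both strands of the windows that RefSeq's table holds for 28 of the 42 tested genes, 32 windows in all. GAGGAA was in 7 of these 32 windows (21.9%) and in 23.3% of all 32851 windows of that length in the table. TTGCNNAA was in 5 (15.6%) and in 9.56% of all windows. The STAT motif TTCNNNGAA was in 2, those of C7 and Pros1 (6.25%, against 7.02%), the interferon-stimulated response element in 1, that of Cd59a (3.12%, against 2.98%), and the NF-kB motif in 0 (against 0.356%). The letters GAA occur in GAGGAA and in TTCNNNGAA, so matches to these motifs can share bases. A match shows letters in a window and not a bound site.

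The genes that start and drive complement were higher in the KO-labelled medulla almost throughout. Of 15 such genes 14 were tested, and 13 rose, none fell and 1, Colec12, was not called. Their median log2 difference was 2.33. Recognition by the classical pathway rests on C1q, a protein built of 3 chains encoded side by side on chromosome 4 (GRCm38), where 3600 bases separate C1qb from C1qc and 2979 separate C1qc from C1qa. C1qa normalized counts were 918 and 912.5 in WT-labelled libraries and 6049 and 5603 in KO-labelled libraries. C1qb had 493.5 and 433.4 against 2229 and 2015, and C1qc 1074 and 999.9 against 6078 and 5368. In all 3 genes the groups were well apart, and the log2 differences were 2.67 (SE 0.0834, limma adjusted p = 4.48e-06), 2.19 (SE 0.116, 2.19e-05) and 2.46 (SE 0.095, 8.6e-06). Per kilobase of exon, C1qa, C1qb and C1qc stood at 880, 426 and 537 normalized counts in WT-labelled medulla and at 5602, 1950 and 2964 in KO-labelled medulla.

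The other listed genes of the classical pathway rose by unequal amounts. C1ra, which encodes the protease C1r, went from 833.3 and 891.6 to 1791 and 2206 (log2 difference 1.20, SE 0.123, limma adjusted p = 0.000291). C2, the protease part of the classical C3 convertase, went from 460 and 426.4 to 854.8 and 889.4 (log2 difference 0.98, adjusted p = 0.000598). C4b, which encodes C4, the other part of that convertase, was low in the WT-labelled libraries, at 57.13 and 15.9, and reached 728.3 and 819.7 in the KO-labelled ones (log2 difference 4.63, SE 0.514, adjusted p = 0.000421). Reads of C4b can be split with its near-identical copy C4a, and C4b and C4a summed gave 104.4 and 53.68 against 749.7 and 838.5, a 10-fold higher mean. C1ra and its copy C1rb summed gave 836.2 and 894.6 against 1792 and 2211.

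The 3 listed genes of the lectin pathway were Masp1, Colec12 and Mbl2. Masp1, a protease bound to mannose-binding lectin and ficolins, had 343.7 and 337 against 456.9 and 448.5, a difference of 0.41 on the log2 scale with an adjusted p of 0.0379 by limma. That call was lost in 7 of 14 other settings, among them the fit with the replicate number as a block (adjusted p = 0.0759) and the omission of any single library (0.0975 to 0.15). Masp1 also overlaps 1022 bases of Rtp4, so some reads of either can be counted for the other if strand was not used. Colec12, a scavenger receptor with a collagen-like stalk and a lectin domain, was abundant and had 10037 and 10291 against 11019 and 11189 (log2 difference 0.13, 95% interval -0.04 to 0.30, adjusted p = 0.182). Mbl2, a circulating mannose-binding lectin, had 1 read in a single library of each group and was not tested. Among lectin pathway genes outside the list, Colec11, a soluble collectin, fell from 37.43 and 24.85 to 10.73 and 13.19 (log2 difference -1.29, adjusted p = 0.0358). Masp2, a protease of the same pathway, had 21 reads in the WT-labelled group and 0 in the KO-labelled one, at least 6.9-fold lower when 3 reads are taken as the group's floor. Others outside the list pointed up without being called. Fcna had 9.849 and 13.92 against 34.32 and 16.02 (log2 difference 0.95, limma adjusted p = 0.153). Mbl1 had 0 reads in the WT-labelled group and 7 in the KO-labelled one. Colec10 had 3.94 and 4.97 against 7.508 and 5.653, and neither Mbl1 nor Colec10 was tested. All of these genes outside the list were chosen after their values were seen.

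C3 showed the largest log2 difference among the complement genes of the list. It encodes the protein on which all 3 pathways converge, and lies on chromosome 17, 57203967 to 57228136. Its normalized counts were 182.2 and 275.3 in WT-labelled libraries and 7123 and 8087 in KO-labelled libraries, means of 228.8 ± 65.84 and 7605 ± 681.8 (SD, n = 2), a 33.2-fold higher mean. The log2 difference was 5.08 (SE 0.189, limma adjusted p = 7.42e-06), and stayed between 4.78 and 5.38 in the other settings. Per kilobase of exon the level went from 44.5 to 1479, so that C3 lay below C1qb at 426 in the WT-labelled group, and below C1qb at 1950 in the KO-labelled group too.

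Genes of the alternative pathway amplification loop rose by unequal amounts. Cfp, properdin, which stabilizes the alternative convertase and is made by myeloid cells, had 239.3 and 233.6 against 1041 and 946.8 (log2 difference 2.07, SE 0.129, limma adjusted p = 4e-05). Cfb, factor B, the protease part of that convertase, was already at 1816 and 1808 and rose to 2381 and 2506 (log2 difference 0.43, SE 0.0817, adjusted p = 0.00451). Cfb and C2 are encoded next to each other on chromosome 17 with 87 bases between them, yet their log2 differences were 0.43 and 0.98. Cfd, factor D, the protease that cleaves factor B, was near the detection limit at 0 and 6.958 against 11.8 and 64.06 (log2 difference 3.35, SE 1.13, adjusted p = 0.0428). The Cfd call was lost in 6 of 13 other settings, and its log2 difference was 1.86 when WT replicate 1 was left out (adjusted p = 0.187) and 2.18 when KO replicate 2 was (adjusted p = 0.171).

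Both genes of the terminal pathway that were listed, C6 and C7, encoding early subunits of the membrane attack complex, rose. C7 had 209.8 and 182.9 against 1044 and 1744 (log2 difference 2.78, SE 0.238, limma adjusted p = 0.000138). C6 was low, at 12.8 and 2.982 against 89.02 and 126.2 (log2 difference 3.85, SE 0.601, adjusted p = 0.00191). Later components, measured as other genes of the pathway, did not move one way. Hc, which encodes C5, was at 0 reads in the WT-labelled group and at 66.5 and 48.05 normalized counts in the KO-labelled one, at least 38.2-fold higher when 3 reads are taken as the group's floor. C9, the pore-forming subunit, had 3 reads in each group and was not tested. C8g, which encodes a chain of C8, fell from 115.2 and 117.3 to 56.85 and 45.22 (log2 difference -1.18, adjusted p = 0.00739). C8a, encoding another chain of C8, had 26.59 and 6.958 against 0 and 11.31 and was not called (log2 difference -2.08, adjusted p = 0.189), and C8b had 1 read in all. Hc, C8a, C8b, C8g and C9 were chosen after their values were seen.

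**Figure D2:**
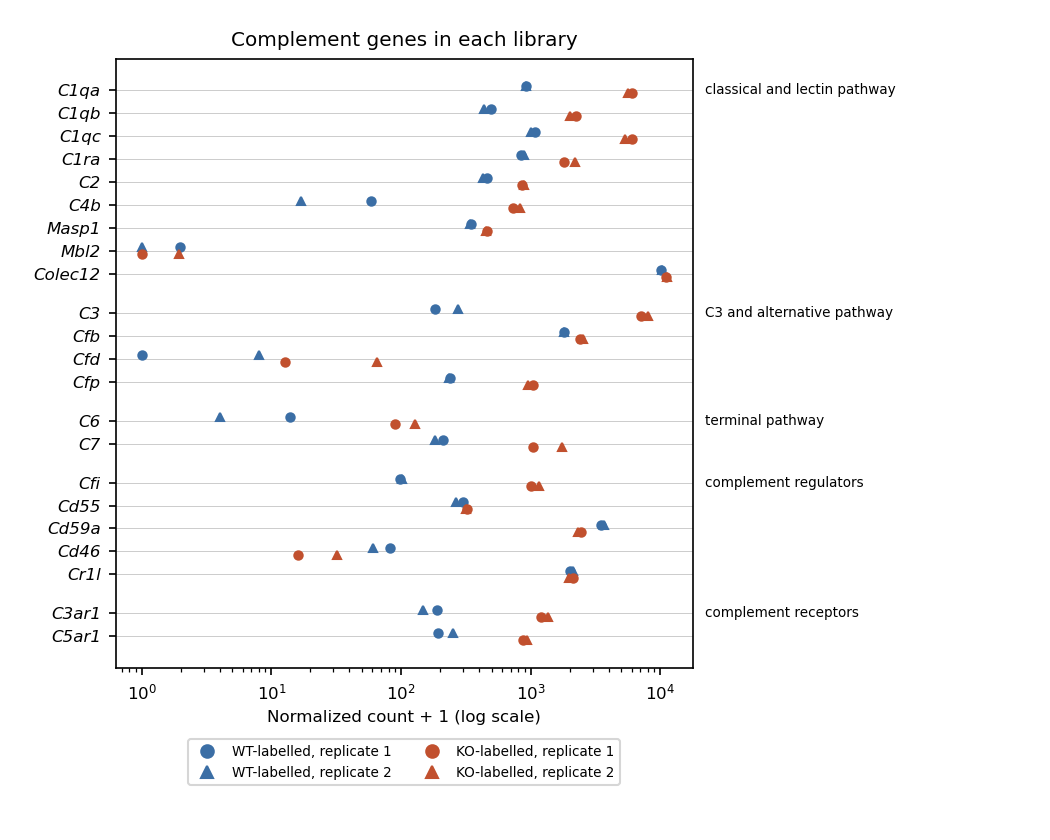
Normalized count plus 1 (horizontal log axis) of each complement gene in each library, blue for WT-labelled, orange for KO-labelled, circles for replicate 1 and triangles for replicate 2. C1q, C3, C7, Cfi and the receptors show separate groups, whereas Cr1l at 1967 to 2135 overlaps and Colec12 and Cd55 lie close together.

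The listed complement regulators did not move as a block. Of 5 genes 1 rose, 2 fell and 2 were not called. The median log2 difference was -0.01. The one that rose was Cfi, factor I, the soluble protease that cleaves C3b and C4b, at 97.51 and 101.4 against 1003 and 1147 (log2 difference 3.42, SE 0.152, limma adjusted p = 1.28e-05). The listed regulators anchored in the cell membrane went the other way or stayed near their WT-labelled levels. Cd59a, the inhibitor of pore assembly, fell from 3511 and 3651 to 2450 and 2333 (log2 difference -0.58, SE 0.0789, adjusted p = 0.000998), and Cd59a with its copy Cd59b summed gave 3616 and 3763 against 2489 and 2398. Cd46, a cofactor for factor I, was low and fell from 81.75 and 59.64 to 15.02 and 31.09 (log2 difference -1.64, adjusted p = 0.0152). Without WT replicate 1 its adjusted p was 0.0913.

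Cr1l, which encodes Crry, the main convertase inhibitor on mouse cells, had 2008 and 2116 against 2135 and 1967. The groups overlapped, with a log2 difference of -0.01 and a 95% interval of -0.22 to 0.20 (adjusted p = 0.943). Its sign turned in 4 other settings. Cd46 and Cr1l overlap by 74 bases on chromosome 1, and Cr1l was the more abundant of the pair at 199 against 9.3 normalized counts per kilobase of exon in the WT-labelled group. Cd55, decay-accelerating factor, had 297.5 and 263.4 against 322.8 and 315.6, with a log2 difference of 0.19 and a 95% interval of -0.18 to 0.55 (adjusted p = 0.339). An antisense RNA gene, Cd55os, overlaps 8117 bases of Cd55, and reads from both cannot be told apart if strand was not used.

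Both receptors for complement fragments that were on the list rose. C3ar1, the receptor for C3a, had 187.1 and 146.1 against 1204 and 1350 (log2 difference 2.94, SE 0.164, limma adjusted p = 2.68e-05). C5ar1, a receptor for C5a, had 192.1 and 248.5 against 872 and 932.7 (log2 difference 2.04, SE 0.163, adjusted p = 0.000106). These G protein-coupled receptors are known from myeloid cells.

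Macrophage markers rose in the same libraries as C1q, Cfp, C3ar1 and C5ar1. Of 13 such markers 12 were called higher and 1, Mertk, lower, with a median log2 difference of 2.61, and their summed normalized count was 14127 and 14338 in WT-labelled against 53407 and 54561 in the KO-labelled libraries. None of the 13 was at 0. Of 8 neutrophil markers 4 were tested and 2 rose, and their sum was 191.1 and 168 against 317.5 and 380.6, with Ly6g at 0 and 0 against 1.073 and 1.884. Of 7 T and B cell markers 5 were tested, of which 1, Cd4, rose and 4 were not called. The 7 summed to 240.3 and 179.9 against 625.3 and 796.1. The rise of that sum lay in Cd4, at 141.8 and 116.3 against 566.3 and 702.8. Fibroblast and pericyte markers went both ways, with 4 of 8 higher, 1 lower and 3, Pdgfra, Pdgfrb and Dcn, not called. Their sum of 147657 and 152003 against 382197 and 437372 was mostly collagen transcripts. Col3a1 had 93785 and 92680 against 261051 and 308699, and Col1a1 12071 and 15309 against 80404 and 82975. The part of these cell types in the rises above was not tested.

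Among clotting factor genes, F3, F10, F5 and F13a1 rose and F8, Vwf and Kng2 fell. Of 8 such genes 4 rose, 3 fell and 1 was not called. F3, tissue factor, the membrane protein that starts coagulation outside vessels, had 1711 and 1973 against 4282 and 5048 (log2 difference 1.34, SE 0.113, limma adjusted p = 0.00013). F10, factor X, which tissue factor and factor VII activate, was almost silent at 0.9849 and 4.97 and reached 93.31 and 66.89 (log2 difference 4.54, SE 0.598, adjusted p = 0.000888). F5, the cofactor of activated factor X, had 32.5 and 15.9 against 153.4 and 156.4 (log2 difference 2.71, SE 0.369, adjusted p = 0.00102). F10 and F5 thus rose to levels that remained low per kilobase of exon, at 29.3 and 20.8 normalized counts, against 1846 for F3.

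F13a1, the A chain of factor XIII, which crosslinks fibrin and is made by macrophages and platelets, had 683.6 and 636.1 against 2774 and 2718. Its log2 difference was 2.06 (SE 0.0927, limma adjusted p = 1.33e-05). Platelet and megakaryocyte markers other than Pf4 and Ppbp did not pass the threshold or were not tested. Of 7 such markers 4 were tested and 2 rose, with a sum of 378.2 and 393.6 against 809.8 and 821.5, and the platelet glycoprotein genes Gp9, Gp5 and Gp6 had at most 3.218 in any library.

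F8 and Vwf encode factor VIII and von Willebrand factor, the carrier that protects it, both known as endothelial products. Vwf had 2533 and 2860 against 1828 and 1489 (log2 difference -0.71, SE 0.122, limma adjusted p = 0.00294). F8 had 1445 and 944.3 against 720.8 and 691.5 (log2 difference -0.73, SE 0.193, adjusted p = 0.0179), and without WT replicate 1 it was -0.42 (adjusted p = 0.0542). F8 also lost its call without a variance trend (adjusted p = 0.0774), and it overlaps 340 bases of the more abundant Fundc2. All 10 endothelial markers fell in the same libraries, with a median log2 difference of -1.35 and a sum of 94630 and 96114 against 33903 and 32199. The part of the endothelium in these falls was not tested.

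The contact pathway genes differed from each other. Kng2, a kininogen gene, encodes a precursor of bradykinin and a cofactor of plasma kallikrein, and it lies on chromosome 16, 22985852 to 23029101. It was among the most abundant genes of the list at 19058 and 19149 in the WT-labelled libraries and fell to 5267 and 3867 in the KO-labelled ones, a 4.18-fold lower mean. The log2 difference was -2.08 (SE 0.139, limma adjusted p = 5.21e-05). Its neighbouring copy Kng1 had 161.5 and 125.2 against 55.77 and 52.76, and reads can be split between the copies, but Kng2 and Kng1 summed gave a 4.16-fold lower mean. Klkb1, plasma prekallikrein, had 10.83 and 21.87 against 15.02 and 20.73, with overlapping groups (log2 difference 0.18, adjusted p = 0.774). Most markers of the collecting duct, thick ascending limb, thin limb and proximal tubule fell in the same libraries, with 5, 4, 4 and 6 of 6 lower. Their median log2 differences were -1.43, -2.03, -2.22 and -1.95. Cldn16 of the thick ascending limb (log2 difference 0.28) and Cldn4 of the thin limb (2.59) were called higher. Scnn1b, Umod and Bst1 were not called. The collecting duct markers summed to 45489 and 55388 against 15886 and 12168, those of the thick ascending limb to 431091 and 438169 against 255310 and 177295, and those of the proximal tubule to 146582 and 94656 against 31809 and 56231. Within the thick ascending limb sum, Umod alone had 136828 and 143709 against 203680 and 138033. The thin limb markers summed to 70014 and 78711 against 50181 and 33657. The part of these tubule segments in the fall of Kng2 was not tested.

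**Figure D3:**
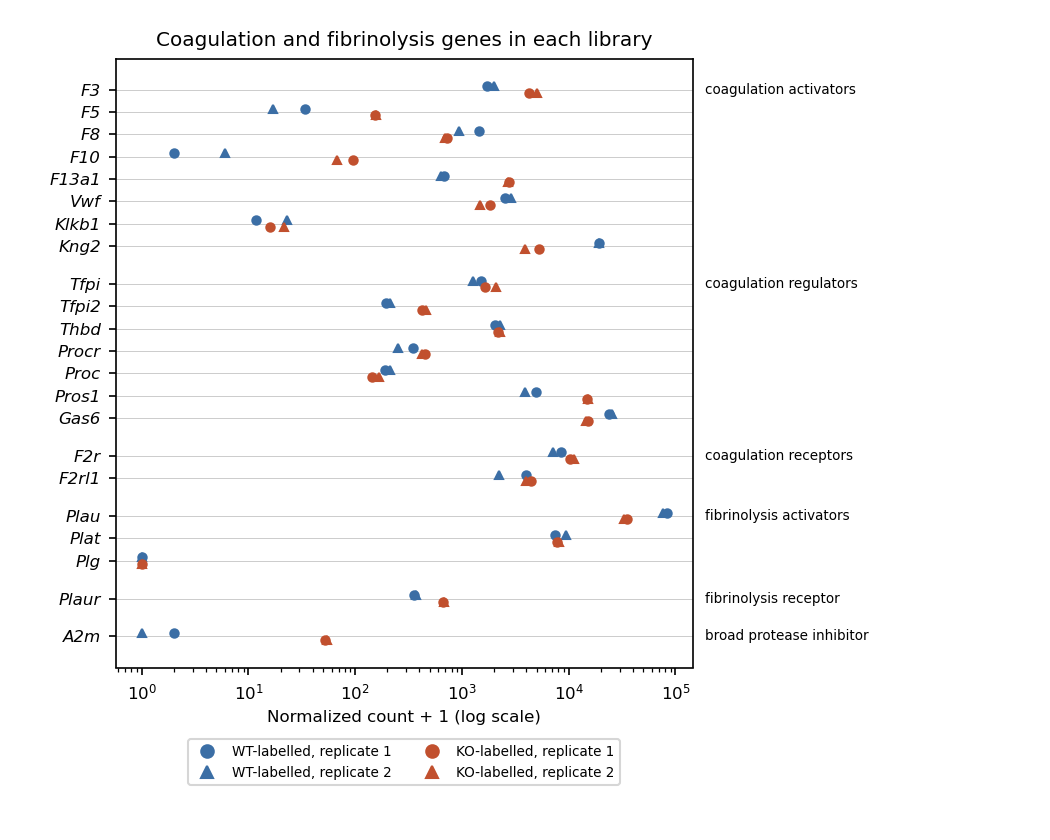
Normalized count plus 1 (horizontal log axis) of each coagulation and fibrinolysis gene and of A2m in each library, with colours and symbols as for the complement genes. Plau and Kng2 are lower in both KO-labelled libraries, F10 and A2m go from near 0 to 51.48 or more, and Plg is at 0 in all 4 libraries.

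Among 7 genes grouped as regulators of coagulation 4 rose, 1 fell, and 2, Thbd and Proc, were not called. The 1 that fell, Gas6, is grouped here with its relative Pros1. Tfpi, the inhibitor of tissue factor with factor VIIa, had 1499 and 1276 against 1653 and 2075 (log2 difference 0.42, limma adjusted p = 0.0378). The Tfpi call was lost in 5 of 14 other settings. Its log2 difference was 0.30 when WT replicate 2 was left out (adjusted p = 0.175) and 0.26 when KO replicate 2 was (adjusted p = 0.2). Its relative Tfpi2, a matrix-bound inhibitor of plasmin and other proteases, rose more clearly, from 193 and 210.7 to 420.4 and 459.8 (log2 difference 1.12, SE 0.155, adjusted p = 0.00109). Thbd, thrombomodulin, which turns thrombin into an activator of protein C, had 2049 and 2264 against 2164 and 2288. The Thbd groups overlapped, with a log2 difference of 0.05 and a 95% interval of -0.17 to 0.26 (adjusted p = 0.685).

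Procr, the endothelial protein C receptor, had 343.7 and 251.5 against 446.2 and 417.4 (log2 difference 0.55, limma adjusted p = 0.0418). The Procr call was lost in 7 of 14 other settings, and its log2 difference was 0.33 without WT replicate 2 (adjusted p = 0.184). Lost calls also followed from leaving out KO replicate 1 (adjusted p = 0.142) or KO replicate 2 (0.0805). Proc, protein C itself, had 191.1 and 208.7 against 141.6 and 166.8 (log2 difference -0.38, 95% interval -0.83 to 0.08, adjusted p = 0.141). Endothelial markers fell by a median log2 difference of -1.35, and neither Thbd nor Procr, both known from endothelium, was called lower.

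Pros1 and Gas6 encode related vitamin K-dependent proteins and moved in opposite directions. Pros1, protein S, the cofactor of protein C and a ligand of the TAM receptors, had 4972 and 3878 in WT-labelled and 14694 and 15285 in KO-labelled libraries, a 3.39-fold higher mean. Its log2 difference was 1.77 (SE 0.121, limma adjusted p = 5.61e-05). Gas6, another ligand of the TAM receptors, had 24078 and 25700 against 15281 and 14634, a 1.66-fold lower mean with a log2 difference of -0.73 (SE 0.0819, adjusted p = 0.000427). Per kilobase of exon, Gas6 went from 9768 to 5870 and Pros1 from 1082 to 3667, so Gas6 stayed the more abundant of the pair. Mertk, a TAM receptor included among the macrophage markers, had 3143 and 3777 against 1654 and 2285 (log2 difference -0.83, adjusted p = 0.00531). Gas6 shares 28061 bases with the low-abundance gene Tmem255b, whose mean was 38.12.

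The listed protease-activated receptor genes F2rl1 and F2r are neighbours on chromosome 13, with 76539 bases between them. F2r, the main thrombin receptor on non-platelet cells, had 8475 and 7188 against 10291 and 11214 (log2 difference 0.46, SE 0.101, limma adjusted p = 0.00845), a call lost without a variance trend (adjusted p = 0.0537). F2rl1, a receptor for trypsin-like proteases in epithelia, had 3953 and 2235 against 4449 and 4002. Its groups did not overlap, but the spread between the WT-labelled libraries was wide and the log2 difference of 0.51 did not pass the threshold (adjusted p = 0.113). It passed with the replicate number as a block (adjusted p = 0.0276) and without WT replicate 1 (log2 difference 0.92, adjusted p = 0.00228). The log2 difference dropped to 0.09 without WT replicate 2 (adjusted p = 0.493) and with edgeR on 3 libraries (adjusted p = 0.51). F2rl3, another receptor of this family, on chromosome 8, fell from 166.5 and 194.8 to 64.35 and 48.05 (log2 difference -1.68, limma adjusted p = 0.00155), and was chosen after its values were seen.

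Urokinase was the most abundant gene of the list and fell. Plau, which encodes this plasminogen activator, had 82868 and 76384 in WT-labelled and 35174 and 32615 in KO-labelled libraries, means of 79626 ± 4585 and 33894 ± 1810 (SD, n = 2). The log2 difference was -1.23 (SE 0.0999, limma adjusted p = 0.000111). Per kilobase of exon it went from 33640 to 14320 normalized counts, above every other gene of the list in both groups. Plaur, the surface receptor that holds urokinase, rose in the same libraries, from 356.6 and 370.8 to 667.1 and 679.3 (log2 difference 0.89, SE 0.124, adjusted p = 0.00114). Plat, tissue plasminogen activator, had 7400 and 9370 against 7782 and 8192 with overlapping groups (log2 difference -0.06, 95% interval -0.34 to 0.22, adjusted p = 0.689).

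Plg, the plasminogen gene on which these activators act, was listed at 0 in all 4 libraries, and a count of 0 allows up to 3 reads per library. A2m, a broad protease inhibitor, rose from 1 read summed over the WT-labelled group to 105 over the KO-labelled group (log2 difference 5.25, limma adjusted p = 0.000365). The ratio was 106 (exact binomial 95% interval 18.7 to 4244, counting error only), and the KO-labelled libraries stood at 51.48 and 53.7 normalized counts. Liver markers differed among themselves. Alb was at 5.91 and 12.92 against 3.218 and 5.653, and Apoa1 at 0.9849 and 4.97 against 1.073 and 0.9421. Of the 8 hepatocyte markers 4 were tested and 2 rose, Ttr from 1033 and 754.4 to 1125 and 1623 and Serpina1a from 125.1 and 139.2 to 561 and 457.9. The 8 markers summed to 1449 and 1277 against 1901 and 2452, and their part in the rise of A2m was not tested.

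The remaining genes of these pathways were read from a separate list of 69, of which 50 were tested, 22 rose and 13 fell. This is 70% called, against 51.2% of all tested genes, and the median log2 difference was 0.10. Among 25 tested complement genes 11 rose and 7 fell. The 4 with the smallest adjusted p were Clu, a chaperone that also blocks pore assembly, Itgax and Itgb2, which pair as complement receptor 4, and Serping1, the inhibitor of C1r and C1s, with means 19.6, 39, 4.32 and 2.66 times those of the WT-labelled group. Serping1 had 8228 and 8686 against 20799 and 24161 normalized counts, and its target protease gene C1s1 had 2903 and 3016 against 6959 and 8594. C1s1 was chosen after its values were seen.

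Of 15 other coagulation genes tested, 5 rose and 4 fell. The 3 fibrinogen chain genes Fgg, Fga and Fgb and the factor X inhibitor gene Serpina10 had the smallest adjusted p, with log2 differences of 7.24, 3.63, 4.98 and 3.53. Serpina10 had 428.5 and 326 against 3963 and 4758. F7, factor VII, lies 1498 bases from F10 on chromosome 8 and had 1.97 and 1.988 against 16.09 and 27.32 (log2 difference 2.88, limma adjusted p = 0.00447), while Proz, 3907 bases beyond F10, had 44.32 and 59.64 against 12.87 and 32.97 (log2 difference -1.27, adjusted p = 0.0622). F13b, the carrier chain of factor XIII, fell from 888.4 and 952.2 to 112.6 and 236.5 (log2 difference -2.49, adjusted p = 0.000755), opposite to F13a1. F2, prothrombin, had 0 reads over the WT-labelled group and 1 over the KO-labelled group. F7, Proz, F13b and F2 were chosen after their values were seen.

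Of 10 other fibrinolysis genes tested, 6 rose and 2 fell. Serpine2, which encodes an inhibitor of thrombin and urokinase, had 3713 and 3975 against 20407 and 19638 (log2 difference 2.38, SE 0.0775, limma adjusted p = 4.86e-06). Lrp1, which clears protease and inhibitor complexes, and Mrc2, a collagen receptor that binds the urokinase receptor, rose by log2 differences of 0.82 and 0.53. The 2 other fibrinolysis genes that fell were Cpb2 (log2 difference -1.02) and Pzp (-1.99), which were looked up after their values were seen. The activator gene Plau was lower, at 33894 against 79626, in libraries where Serpine2 was higher and Cpb2 and Pzp were lower.

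**Figure D4:**
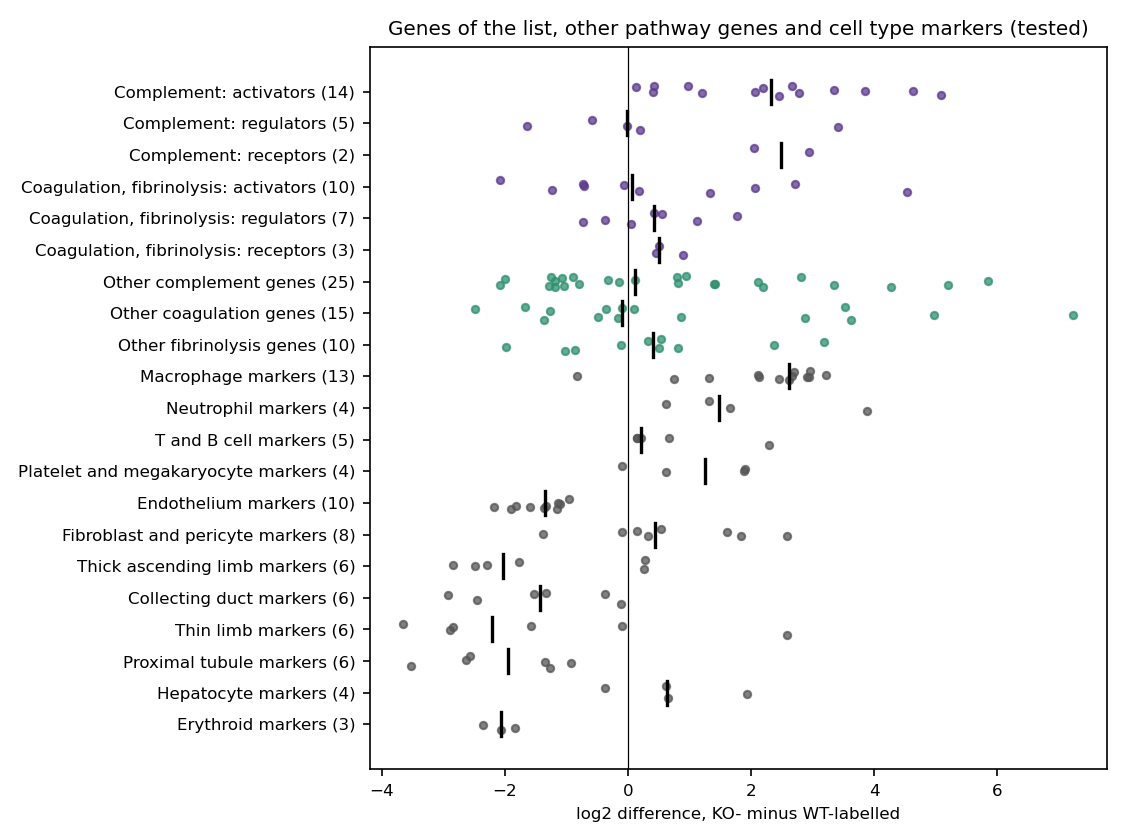
Log2 difference (KO-labelled minus WT-labelled, horizontal axis) of every tested gene of the list by system and role (purple), of the other pathway genes (green) and of the cell type markers (grey), with the number tested in brackets, A2m left out, and the median as a black bar. Complement activators have a median of 2.33 and macrophage markers one of 2.61, while endothelium markers lie at -1.35.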

How the data were processed

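Total RNA of the kidney medulla was sequenced as mRNA libraries, 1 per mouse, in 2 WT and 2 KO samples grouped by their titles. The deposited values are normalized counts (unit: signal), in which the authors scaled the reads of each gene by a factor for its library. The values themselves show this: 100% are whole multiples of 1 step per column (0.985, 0.994, 1.07 and 0.942) within 0.001. The tools listed, per the submitters' processing notes, are DESeq2 (2.11.40.7), featureCounts (2.0.1), HISAT2 (2.2.1) and fastp (0.20.1), with builds mm10 and GRCm38. Which annotation, strand setting and multi-mapping rule were applied is not given in the sources used here.

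Of 27179 Entrez IDs, 25275 matched a symbol in RefSeq's GRCm38.p6 table. limma 3.58.1 (R 4.3.3) with a variance trend was fitted to log2(value + 1) for 16253 genes whose mean reached 10, two-sided, with Benjamini-Hochberg adjustment over all of them and 2 residual degrees of freedom per gene (6.96 after pooling). The fit was also run on simulated data with few changed genes and the same spread setting for every gene. That setting differs from these data, in which 51.2% of tested genes were called, so it does not gauge the error of these calls. Exon lengths are the union of exons in the GENCODE annotation of GRCm38. Intervals and floors from reads cover counting error only. Replicates differed beyond sampling noise (chi-square per degree of freedom 23.5 and 17.8).

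All list genes were to be named, with up to 4 others per role by smallest adjusted p; some results under this rule are not reported here. The genes, lists and tests were chosen with earlier results of these data known. The alternatives were pseudocounts, filters, scalings, variance models, a block for the replicate number, each library left out, and, chosen after seeing the data, TMM factors and edgeR 4.0.16 on 3 libraries.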

Additional observations from a re-analysis of the deposited data

How the results depend on the processing

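The counts of higher and lower calls over the 44 genes stayed within 1.5 times their values of 27 and 7 in all 14 alternatives. Leaving out 1 library gave 23 to 26 higher and 5 to 7 lower, and no called gene of the list changed direction. Among the other pathway genes, 22 rose and 13 fell, and leaving out 1 library gave 20 to 21 higher and 8 to 13 lower; 8 fell without WT replicate 1, without WT replicate 2 or without KO replicate 1. Over all genes, leaving out 1 library gave 3117 to 3582 higher and 3085 to 3341 lower calls. The sign of the log2 difference turned only in genes that had not passed the threshold: Cr1l (0.00 after quantile normalization, 0.03 without WT replicate 2, 0.05 without KO replicate 2, 0.02 with edgeR), Klkb1 (-0.29 without WT replicate 1, -0.04 without KO replicate 2), Thbd (-0.02 without WT replicate 1) and Plat (0.11 without WT replicate 2, 0.10 with edgeR); the cause was not tested. Over the omissions of 1 library these ranged from -0.07 to 0.05 for Cr1l, -0.29 to 0.66 for Klkb1, -0.02 to 0.12 for Thbd and -0.23 to 0.11 for Plat. With the replicate number as a block, 27 genes of the list were higher and 7 lower, the same counts as without it, and Masp1 lost its call (adjusted p = 0.0759) while F2rl1 gained one (0.0276). The numbers 1 and 2 do not pair the samples by any label, and deviations of same-numbered libraries correlated at -0.056 across 16253 genes. The median log2 difference over all genes was 0.003, and lay at -0.016 after quantile normalization and -0.006 with TMM factors. The planned edgeR and DESeq2 fits on all 4 libraries were not run, because the step of WT replicate 2, 0.994, is so close to 1 that a separate check did not accept its values as recovered reads. Its reads enter the library totals, the low-count intervals, the floors and the comparison of replicate noise, which rest on that step. edgeR on the reads of the other 3 libraries called 24 of the genes higher and 7 lower, with the lone WT library assumed to vary like the KO group. Depth limits the genes near 0, namely Mbl2, Plg, Cfd, A2m, F10 and C6, and also Klkb1 at 11 to 22 reads per library.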
